A study of Homo sapiens with 8 samples.

Results

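The heat shock chaperones described here are 10 genes of the heat shock protein families, chosen from the 60617 genes of the deposited count table by family name and with earlier results of these data known. Those results had named HSPB1 and DNAJA1 as higher in sgKDM5C and HSPA1B as higher in sgKDM6A, so the levels and changes of the 10 genes against WT are a description and carry no test here. They comprise 3 HSP70 genes (HSPA1A, HSPA1B, HSPA8), the small heat shock protein HSPB1, the J proteins DNAJA1 and DNAJB1, the HSP90 genes HSP90AA1 and HSP90AB1, and the chaperonins HSPD1 and HSPE1. The first 8 of these encode proteins that work mainly in the cytosol and nucleus. HSPD1 and HSPE1 encode HSP60 and HSP10, whose main site is the mitochondrial matrix, so the name cytosolic covers them only as heat shock genes.

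RNA came from HEK293T, a transformed cell line derived from human embryonic kidney, and was made into 8 libraries after poly(A) selection. Knockout cells were labelled sgKDM5C, sgKDM6A and sgKMT2B for the gene a guide RNA targeted: KDM5C (an H3K4 demethylase), KDM6A (an H3K27 demethylase) or KMT2B (an H3K4 methyltransferase). The remaining group, WT, was the same line without a knockout. Each group had 2 libraries, no heat or drug treatment is given for any of them, and the labels do not say whether a knockout was 1 clone or a pool, nor whether replicates were separate cultures. The p-values below thus reflect no more than the spread between these libraries, and that spread may be technical.

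Heat shock chaperones bind unfolded or newly made proteins and help them fold. HSP70 proteins take up clients delivered by J proteins, which stimulate their ATP hydrolysis, and can pass clients on to HSP90, which matures kinases and receptors. Small heat shock proteins hold unfolding proteins without ATP, and the HSPD1 chamber with its HSPE1 lid folds proteins in mitochondria. In heat or other proteotoxic stress the transcription factor HSF1 binds inverted GAA repeats, called heat shock elements, before many of these genes. HSPA8 and HSP90AB1 are the constitutive forms of their families, while HSPA1A and HSPA1B are the classical inducible ones.

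The libraries held between 15868353 (WT replicate 2) and 27591724 (sgKDM6A replicate 2) counts, and 17527 genes passed the filter on low counts. Each targeted gene was lowest in its own knockout, with log2 changes of -0.50 for KDM5C, -2.39 for KDM6A and -1.03 for KMT2B against WT. Of 9 kidney and epithelial markers, PAX8 was at or near 0 in every library (at most 0.0728 CPM), and the summed level of the list was 225 to 229 CPM in sgKDM5C, 142 to 160 CPM in sgKDM6A, 402 to 424 CPM in sgKMT2B and 249 to 251 CPM in WT. In sgKMT2B that sum was carried by KRT8, with 247 and 265 CPM, against 59.9 and 61.3 CPM in WT (2.08 ± 0.10). WT1 and SALL1 also rose there (0.53 ± 0.16 and 0.38 ± 0.13), while KRT18, CDH1 and PAX2 fell (-0.63 ± 0.10, -1.53 ± 0.28 and -0.57 ± 0.19). In sgKDM6A KRT8 had 5.15 and 5.61 CPM (-3.49 ± 0.11). Of the 8 markers tested, 6 fell and 1 rose there (edgeR, adjusted p under 0.05), beside 14.6% and 12.6% of all genes. Markers of other cell types summed to 25.2 to 50.6 CPM in the knockout libraries and 55.8 to 56.9 CPM in WT, most of it from the collagen gene COL1A1, and the T cell marker CD3E was at 0 everywhere. RNA was taken from whole cultures, so fewer cells with a transcript and less of it per cell cannot be told apart.

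Promoter sequence was looked at first, because heat shock elements are what these genes are known to share. RefSeq (GRCh38.p14) gave 16 windows for the 10 genes, each 300 bases long from 250 before to 50 after a transcription start. The stretches printed are those of HSPB1 and both J proteins, whose levels differed between groups, of the HSP90 genes, whose changes were unequal, and of HSPD1, whose element lies between it and HSPE1. Each is given 5′ to 3′ on the gene's strand and up to the start, with 19 further bases for DNAJA1, whose element lies just after it. Capitals mark the inverted pairs GAANNTTC and TTCNNGAA. The stretches lie at chr7:76302423-76302672 on the plus strand for HSPB1, chr9:33025023-33025291 on the plus strand for DNAJA1, chr19:14518398-14518647 on the minus strand for DNAJB1, chr14:102087045-102087294 on the minus strand for HSP90AA1, chr6:44247693-44247942 on the plus strand for HSP90AB1 and chr2:197499841-197500090 on the minus strand for HSPD1.
HSPB1: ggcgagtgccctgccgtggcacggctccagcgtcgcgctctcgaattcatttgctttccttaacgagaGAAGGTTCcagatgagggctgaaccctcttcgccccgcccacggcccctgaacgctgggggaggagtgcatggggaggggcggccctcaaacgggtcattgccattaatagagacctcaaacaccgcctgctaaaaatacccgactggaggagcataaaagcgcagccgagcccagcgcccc
DNAJA1: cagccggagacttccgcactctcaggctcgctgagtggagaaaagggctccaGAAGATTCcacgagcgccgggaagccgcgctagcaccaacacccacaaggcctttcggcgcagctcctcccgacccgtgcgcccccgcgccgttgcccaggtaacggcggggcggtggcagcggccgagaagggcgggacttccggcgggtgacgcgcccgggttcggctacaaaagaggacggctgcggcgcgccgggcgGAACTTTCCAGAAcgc
DNAJB1: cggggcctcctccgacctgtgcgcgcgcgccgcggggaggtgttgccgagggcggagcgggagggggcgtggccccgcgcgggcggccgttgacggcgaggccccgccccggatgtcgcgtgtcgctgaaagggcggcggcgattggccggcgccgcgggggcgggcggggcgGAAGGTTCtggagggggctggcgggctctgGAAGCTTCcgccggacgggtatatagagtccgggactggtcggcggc
HSP90AA1: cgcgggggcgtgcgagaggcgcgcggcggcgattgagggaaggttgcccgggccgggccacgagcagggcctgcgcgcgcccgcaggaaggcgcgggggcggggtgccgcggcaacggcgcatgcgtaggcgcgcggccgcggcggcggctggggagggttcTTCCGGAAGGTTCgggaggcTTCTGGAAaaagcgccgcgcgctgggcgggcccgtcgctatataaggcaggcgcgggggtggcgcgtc
HSP90AB1: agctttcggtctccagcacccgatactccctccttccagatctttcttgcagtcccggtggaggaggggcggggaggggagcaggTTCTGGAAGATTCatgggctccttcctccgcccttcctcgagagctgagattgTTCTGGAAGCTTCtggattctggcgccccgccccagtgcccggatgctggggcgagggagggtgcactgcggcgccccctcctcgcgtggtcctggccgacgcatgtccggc
HSPD1: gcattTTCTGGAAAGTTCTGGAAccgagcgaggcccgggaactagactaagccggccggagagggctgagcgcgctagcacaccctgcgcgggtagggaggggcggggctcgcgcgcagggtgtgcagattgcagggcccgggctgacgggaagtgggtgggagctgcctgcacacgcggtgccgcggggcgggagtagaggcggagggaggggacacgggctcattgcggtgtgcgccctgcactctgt

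The pair GAANNTTC was found in 9 of the 10 genes, against 6.77% of all 35116 RefSeq windows of the same length. The pair TTCNNGAA was found in 5 of the 10 genes, against 7.74% of all windows. Both pairs read the same on both strands, and where they overlap by 3 bases they make 3 alternating units, the classical element. Such an overlap was present in HSPA8, DNAJA1, HSP90AA1, HSP90AB1 and HSPD1, which is 5 of 10 genes, against 0.49% of all windows. In HSP90AB1 it lay only in window 3, the stretch printed, which is inside the annotated gene and downstream of the starts of its other windows. The other windows of HSP90AB1, HSP90AA1 and HSPD1 held neither pair. HSPB1 held 1 pair, whose first base lay 182 bases before the start. DNAJB1 had 2 pairs, at 77 and 47 bases before the start shown, and no overlap of them. A CCAAT box, searched on both strands like the others, was found in 5 of 10 genes and in 34.6% of all windows, and TATAAA in HSPA1A and HSPA1B alone among the 10, against 11.5% of all windows. These counts run over genes that differ in their number of windows, and a match describes letters, not binding.

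HSPE1 was the gene with none of the heat shock pairs in its window. It lies head to head with HSPD1, with 539 bases between its start and the HSPD1 start used above. The capitals in the HSPD1 stretch lie between both starts, 294 bases from that of HSPE1 and 44 bases beyond the edge of its window. HSPE1 and HSPD1 also share 281 exonic bases on opposite strands in the annotation.

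**Figure D1:**
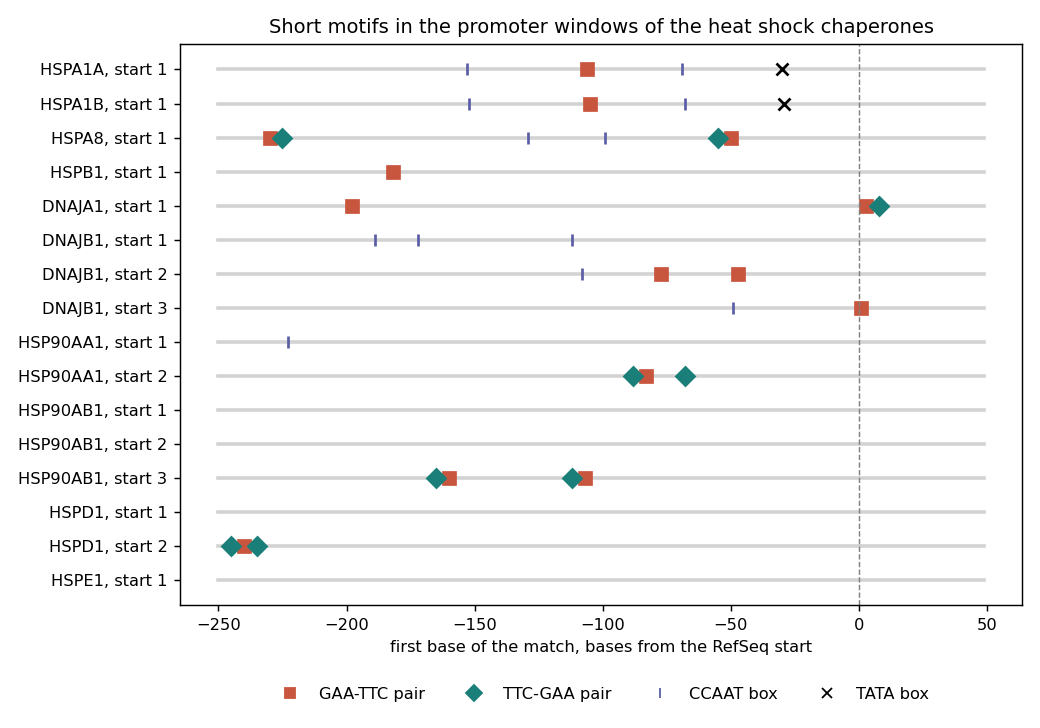
Position of short motifs in the 16 promoter windows of the 10 genes. Each grey line is 1 RefSeq window, the x axis gives the first base of a match in bases from the start, and overlapping squares and diamonds are the 3-unit elements, as in HSPA8 and HSP90AB1, whereas the HSPB1 window holds 1 square.

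Levels are given as CPM, counts scaled to a common TMM-adjusted library total, and changes as log2 values from the edgeR fit with their standard errors (SE). A gene counted as called when its adjusted p over all 17527 genes was under 0.05. HSPA1A failed the filter on low counts, so 9 of the 10 genes were fitted. In sgKDM5C 3 of the 9 were called higher and 2 lower, where 11.1% of all genes tested were called higher and 11.5% lower. In sgKDM6A 7 were called higher and 1 lower, beside 12.6% and 14.6% of all genes. In sgKMT2B 3 were called higher and 1 lower, beside 13.7% and 14.5% of all genes. Leaving out 1 library lowered the number called to 3 in sgKDM5C (without its replicate 1), to 5 in sgKDM6A (without its replicate 2 or WT replicate 2) and to 2 in sgKMT2B (without its replicate 1). The choice of the genes used these comparisons, so nothing is read from the counts. The median log2 change of the 9 was -0.06, 0.53 and 0.10 in sgKDM5C, sgKDM6A and sgKMT2B, and that of all genes was 0.02, 0.01 and 0.00. The comparisons with WT share the WT libraries and are not independent of one another.

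**Figure D2:**
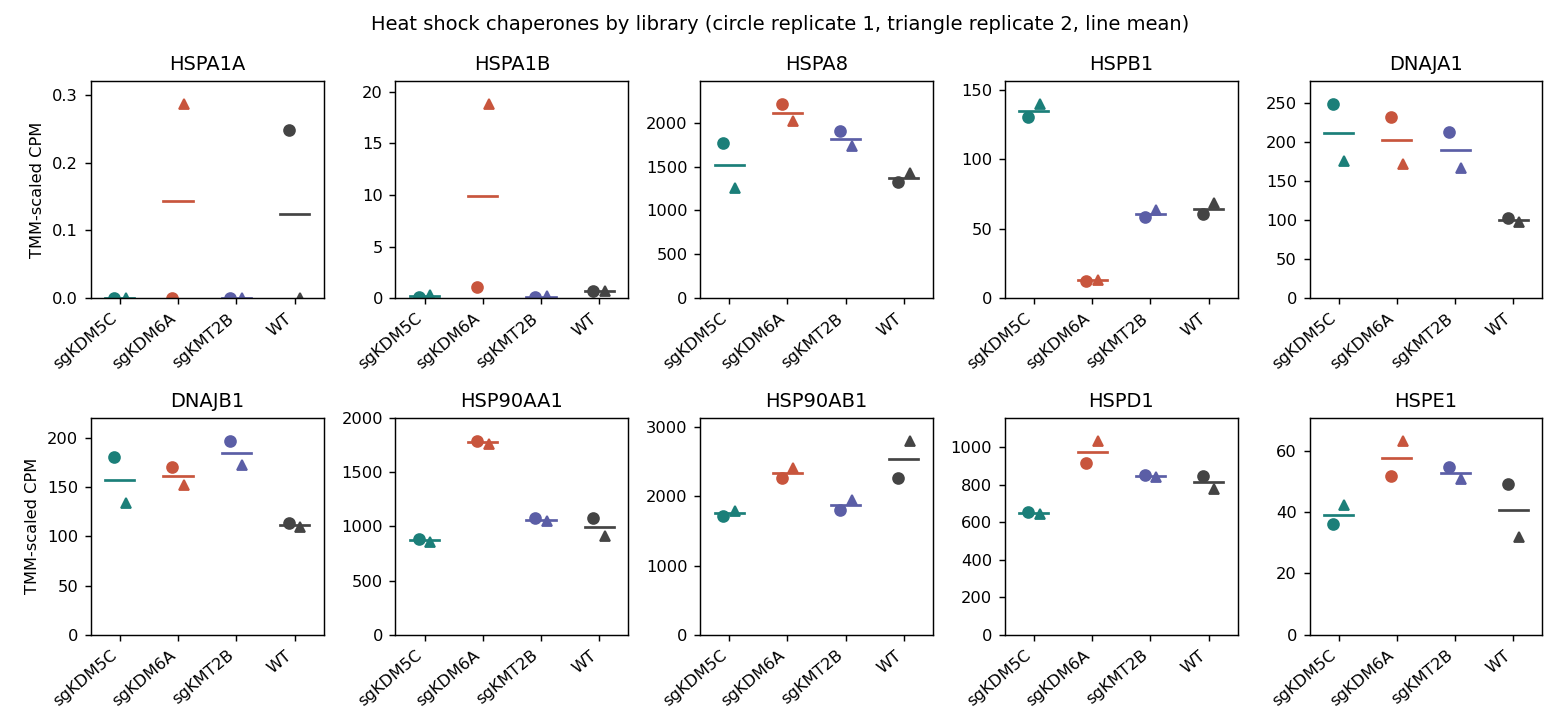
Levels of the 10 chaperone genes in every library. The y axes give TMM-scaled CPM, linear and from 0, with a separate scale for each gene; circles are replicate 1, triangles replicate 2 and lines the mean of both, and HSPB1 stands lowest in sgKDM6A (12.7 and 13.0 CPM) and highest in sgKDM5C (130 and 140 CPM).

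Together the 10 genes took 0.580% and 0.531% of all counts in the sgKDM5C libraries, 0.762% and 0.775% in sgKDM6A, 0.610% and 0.591% in sgKMT2B, and 0.564% and 0.603% in WT. The sgKDM6A libraries stood above those of the other groups. Among the 10, HSP90AB1 and HSPA8 ranked first and second in every group when counts were set per length. HSP90AB1 averaged 588 ± 14.5, 785 ± 32.7, 629 ± 33.2 and 850 ± 127 CPM per kilobase of exon in sgKDM5C, sgKDM6A, sgKMT2B and WT, and HSPA8 312 ± 75.8, 436 ± 28.3, 375 ± 24.1 and 283 ± 14.5 CPM per kilobase (SD, n = 2 each). HSP90AA1 and HSPD1 came next, and their ranges overlapped in sgKMT2B and WT. HSPB1 and DNAJA1 overlapped in sgKDM5C and WT, but in sgKDM6A HSPB1 was at the eighth place, with 7.87 ± 0.122 against 29.1 ± 4.04 CPM per kilobase for HSPE1. HSPA1B and HSPA1A were last in all 4 groups.

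HSPB1 (ENSG00000106211, GRCh38 chromosome 7, 76302544 to 76304295) encodes HSP27, a small heat shock protein that holds unfolding proteins and binds actin. It had 130 and 140 CPM in sgKDM5C, 12.7 and 13.0 CPM in sgKDM6A, 58.3 and 63.3 CPM in sgKMT2B, and 60.4 and 68.6 CPM in WT. Both sgKDM5C libraries lay above WT and both sgKDM6A libraries below it, while sgKMT2B and WT overlapped. The change against WT was 1.07 ± 0.11 in sgKDM5C, a 2.09-fold higher level. In sgKDM6A it was -2.32 ± 0.12, a 5.00-fold lower level, and in sgKMT2B -0.08 ± 0.11. Leaving out any 1 library of WT or of the knockout compared gave 0.97 to 1.15 in sgKDM5C and -2.41 to -2.23 in sgKDM6A. HSPB1 was chosen with its rise in sgKDM5C known, so these changes and ranges are a description. Between the knockouts, HSPB1 was 10.5-fold higher in sgKDM5C than in sgKDM6A (3.39 ± 0.12) and 2.22-fold higher in sgKDM5C than in sgKMT2B (1.15 ± 0.11). The 27 genes tested within 2 Mb of HSPB1 that averaged 5 CPM or more had a median change of 0.03, -0.11 and -0.03 in sgKDM5C, sgKDM6A and sgKMT2B.

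Of 9 other small heat shock protein genes, 4 passed the filter, and 0, 0 and 0 rose and 0, 1 and 0 fell in sgKDM5C, sgKDM6A and sgKMT2B. Over all genes 11.1%, 12.6% and 13.7% rose and 11.5%, 14.6% and 14.5% fell. HSPB8, which works with BAG3 in autophagy of misfolded proteins, had 1.59 and 1.32 CPM in sgKDM6A, against 8.34 and 11.3 CPM in WT. It fell in sgKDM6A (-2.75 ± 0.24, edgeR adjusted p = 5.74e-06) and did not pass in sgKDM5C (-0.35 ± 0.20, adjusted p = 0.24) or sgKMT2B (0.14 ± 0.20, adjusted p = 0.65). The lens crystallin gene CRYAB, a relative of HSPB1, was at most 0.325 CPM in any library.

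DNAJA1 (ENSG00000086061, chromosome 9, 33025211 to 33039907) encodes a J protein that delivers clients to cytosolic HSP70. It had 249 and 176 CPM in sgKDM5C, 233 and 173 CPM in sgKDM6A, 213 and 168 CPM in sgKMT2B, and 103 and 98.3 CPM in WT. All 6 knockout libraries lay above both WT libraries, and the knockout groups overlapped one another. The change against WT was 1.08 ± 0.17 in sgKDM5C, 1.01 ± 0.17 in sgKDM6A and 0.92 ± 0.17 in sgKMT2B, or 2.11-fold, 2.01-fold and 1.89-fold. It was called in each, and the changes ran from 0.74 to 1.30 without any 1 library of WT or of the knockout compared. DNAJA1 was chosen with its rise in sgKDM5C known, so these calls and ranges are a description. The differences between knockouts were 0.07 ± 0.17 (sgKDM5C minus sgKDM6A), 0.16 ± 0.17 (sgKDM5C minus sgKMT2B) and 0.09 ± 0.17 (sgKDM6A minus sgKMT2B). The 30 genes tested within 2 Mb that averaged 5 CPM or more had median changes of -0.13, -0.20 and -0.03 in sgKDM5C, sgKDM6A and sgKMT2B. The median of such genes on chromosome 9 was -0.02, 0.28 and -0.02.

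DNAJB1 (ENSG00000132002, chromosome 19, 14514770 to 14529770) encodes HSP40, the J protein that works with HSP70 in dissolving aggregates. It had 181 and 134 CPM in sgKDM5C, 171 and 152 CPM in sgKDM6A, 197 and 173 CPM in sgKMT2B, and 114 and 109 CPM in WT. Again all 6 knockout libraries were above WT. The changes were 0.50 ± 0.13, 0.53 ± 0.13 and 0.73 ± 0.13 in sgKDM5C, sgKDM6A and sgKMT2B, smaller in value than those of DNAJA1, and all were called. The sgKDM5C call was lost in fits lacking WT replicate 2 (0.45) or sgKDM5C replicate 1 (0.26), and the sgKDM6A call in the fit lacking sgKDM6A replicate 1 (0.44). DNAJB1 shares 211 exonic bases with TECR on the opposite strand, and whether the counting used strand is not stated, so reads there cannot be told apart.

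Both J protein genes were higher in replicate 1 than in replicate 2 of each knockout, DNAJA1 by 1.41-fold in sgKDM5C, 1.35-fold in sgKDM6A and 1.27-fold in sgKMT2B, and by 1.05-fold in WT. For DNAJB1 the ratios were 1.35 in sgKDM5C, 1.13 in sgKDM6A, 1.14 in sgKMT2B and 1.04 in WT. Immediate early genes, which respond within minutes to growth signals, stress and handling, also differed between these libraries. The summed level of these 13 genes was 467 and 947 CPM in replicates 1 and 2 of sgKDM5C, 661 and 852 CPM in sgKDM6A, 665 and 1130 CPM in sgKMT2B, and 3606 and 4390 CPM in WT. JUN was the largest part of that sum in each library. It had 227 and 654 CPM in sgKDM5C and 243 and 388 CPM in sgKDM6A. In sgKMT2B it had 250 and 564 CPM, and in WT 2418 and 2568 CPM. Of the 13, 6, 5 and 7 fell and 1, 1 and 1 rose in the 3 knockouts (edgeR, adjusted p under 0.05). Over all genes 11.5%, 14.6% and 14.5% fell and 11.1%, 12.6% and 13.7% rose. ATF3, a stress-induced transcription factor of that list, fell, with changes of -3.51 ± 0.31 in sgKDM5C (adjusted p = 1.78e-05), -3.66 ± 0.31 in sgKDM6A (adjusted p = 5.33e-06) and -2.29 ± 0.29 in sgKMT2B (adjusted p = 9.46e-05). The gene that rose was EGR1, from 1.94 and 1.95 CPM in WT, with changes of 1.08 ± 0.25, 2.01 ± 0.25 and 1.13 ± 0.25. The part of the immediate early genes in the levels of the J proteins was not tested.

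HSPA8 (ENSG00000109971, chromosome 11, 123057489 to 123063230) encodes HSC70, the constitutive HSP70 and the main partner of both J proteins. It had 1773 and 1253 CPM in sgKDM5C, 2210 and 2016 CPM in sgKDM6A, 1901 and 1736 CPM in sgKMT2B, and 1324 and 1423 CPM in WT. The sgKDM6A and sgKMT2B libraries were above WT, and the sgKDM5C libraries lay on both sides of it. The changes were 0.14 ± 0.13 in sgKDM5C, 0.62 ± 0.13 in sgKDM6A and 0.40 ± 0.13 in sgKMT2B, called in sgKDM6A and sgKMT2B. The sgKMT2B call was lost without WT replicate 1 (0.36) or sgKMT2B replicate 1 (0.34), and in sgKDM5C the change was -0.13 without replicate 1 and 0.36, then called, without replicate 2. The ratio of HSPA8 to DNAJA1 counts within a library was 7.13 in both sgKDM5C libraries and 9.50 and 11.7 in sgKDM6A. In sgKMT2B it was 8.93 and 10.4, and in WT 12.9 and 14.5. Every knockout library lay below both WT libraries. DNAJA1 was higher in every knockout and was chosen with its rise in sgKDM5C known, so the ratio is not a separate result. How many other pairs of genes separate in this way was not counted.

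The inducible HSP70 genes had few counts, and so did most genes around them. Of 159 other protein-coding genes that start within 2 Mb of HSPA1B, 131 (82.4%) averaged under 1 CPM over the 8 libraries, against 37.7% of the 19761 protein-coding genes elsewhere. RPS18, a ribosomal protein gene, had 0.510 to 15.0 CPM, the tubulin gene TUBB 0.281 to 0.946 CPM and the HSP70 partner gene BAG6 0.603 to 0.785 CPM, and the prefoldin gene PFDN6 is listed at 0 in all 8 libraries. All 4 lie in that window and were named after their values were seen. Since genes that every cell uses were at or near 0 there, low counts of HSPA1A and HSPA1B do not show low transcript levels, and the part of this stretch in their counts was not tested. HSPA1A (ENSG00000204389, chromosome 6, 31815464 to 31817946) had 8 counts in sgKDM6A replicate 2, 6 in WT replicate 1 and 0 in the other 6 libraries, where 0 counts allow up to 0.109 to 0.195 CPM (a floor of 3 counts per library, for counting error only). HSPA1B (ENSG00000204388, chromosome 6, 31827735 to 31830255) had 2 and 8 counts in sgKDM5C, 27 and 526 in sgKDM6A, 2 and 5 in sgKMT2B, and 18 and 11 in WT. These are 0.0728 and 0.303 CPM in sgKDM5C, 1.07 and 18.8 CPM in sgKDM6A, 0.0803 and 0.197 CPM in sgKMT2B, and 0.744 and 0.715 CPM in WT. A single library, sgKDM6A replicate 2, stood apart, 17.6-fold above its own replicate. The change in sgKDM6A was 3.76 ± 0.93 and was called, but it was 0.55 without sgKDM6A replicate 2. The call was lost also without WT replicate 1 (3.80) or WT replicate 2 (3.74). In sgKDM5C and sgKMT2B HSPA1B changed by -1.95 ± 1.34 and -2.35 ± 1.43 and was not called.

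The heat-inducible genes HSPA6, HSPH1 and DNAJB1 did not stand apart in the library with 526 HSPA1B counts. HSPA6, the strictly stress-induced HSP70 of human cells, had 1.35 and 1.39 CPM in sgKDM6A replicates 1 and 2, against 1.07 and 0.780 CPM in WT. HSPH1 had 167 and 163 CPM there and DNAJB1 171 and 152 CPM. HSPA1A and HSPA1B are near-identical: of all 150-base stretches of annotated HSPA1B transcripts (GENCODE v29), 66.0% also occur in HSPA1A, and 63.2% of those of HSPA1A occur in HSPA1B. The labels and notes do not say how reads that map to both were counted, so both levels are uncertain.

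HSP90AA1 (ENSG00000080824, chromosome 14, 102080738 to 102139699), the inducible HSP90, and HSP90AB1 (ENSG00000096384, chromosome 6, 44246166 to 44253888), the constitutive one, are the HSP90 genes of the cytosol. HSP90AA1 had 889 and 860 CPM in sgKDM5C, 1787 and 1763 CPM in sgKDM6A, 1079 and 1048 CPM in sgKMT2B, and 1081 and 909 CPM in WT. Only the sgKDM6A libraries lay above WT. HSP90AA1 changed by -0.19 ± 0.09 in sgKDM5C, by 0.83 ± 0.09 in sgKDM6A and 0.10 ± 0.09 in sgKMT2B. Only that in sgKDM6A, a 1.78-fold higher level, was called. It ran from 0.72 to 0.97 when any 1 library of WT or sgKDM6A was left out. The sgKDM5C change was -0.32 without WT replicate 2 and that in sgKMT2B 0.23 without WT replicate 1, and both were then called. HSP90AA1 was 2.03-fold lower in sgKDM5C than in sgKDM6A (-1.02 ± 0.09) and 1.67-fold higher in sgKDM6A than in sgKMT2B (0.74 ± 0.09).

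HSP90AB1 had 1723 and 1784 CPM in sgKDM5C, 2272 and 2410 CPM in sgKDM6A, 1806 and 1946 CPM in sgKMT2B, and 2266 and 2799 CPM in WT. The sgKDM5C and sgKMT2B libraries were below WT and those of sgKDM6A within its range. Changes of -0.53 ± 0.09 in sgKDM5C and -0.43 ± 0.09 in sgKMT2B were called, and -0.11 ± 0.09 in sgKDM6A was not. The sgKMT2B call was lost without sgKMT2B replicate 1 (-0.38), and without WT replicate 2 the change was -0.38 in sgKDM5C and -0.27 in sgKMT2B. In sgKDM6A the change was called without WT replicate 1 (-0.25) and was 0.05 without WT replicate 2. The ratio of HSP90AA1 to HSP90AB1 counts was 0.516 and 0.482 in sgKDM5C, 0.787 and 0.732 in sgKDM6A, 0.597 and 0.538 in sgKMT2B, and 0.477 and 0.325 in WT. Every knockout library was above both WT libraries in this ratio.

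**Figure D3:**
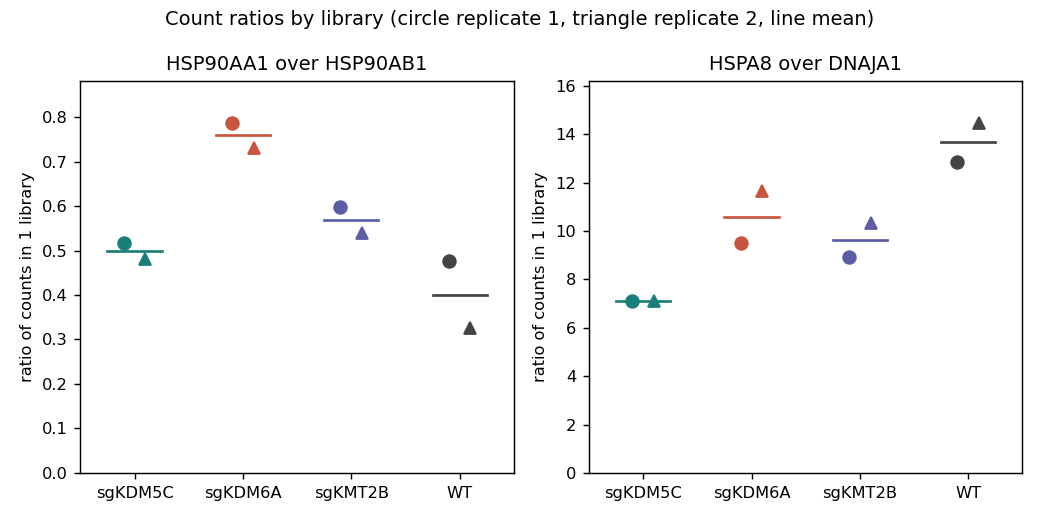
Ratios of counts within a library for HSP90AA1 over HSP90AB1 and for HSPA8 over DNAJA1. The y axes start at 0, circles and triangles are replicates 1 and 2 and lines their mean; the HSP90 ratio is highest in sgKDM6A (0.787 and 0.732) and the HSPA8 to DNAJA1 ratio lowest in sgKDM5C (7.13 in both libraries).

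HSPD1 (ENSG00000144381, chromosome 2, 197486581 to 197516737) had 656 and 643 CPM in sgKDM5C, 915 and 1033 CPM in sgKDM6A, 851 and 842 CPM in sgKMT2B, and 848 and 778 CPM in WT. Both sgKDM5C libraries were below WT and both sgKDM6A libraries above. The changes of -0.32 ± 0.08 in sgKDM5C and 0.26 ± 0.08 in sgKDM6A were called and that of 0.06 ± 0.08 in sgKMT2B was not. The sgKDM5C call was lost without sgKDM5C replicate 1 (-0.34) or 2 (-0.32), and the sgKDM6A call without WT replicate 2 (0.20) or sgKDM6A replicate 2 (0.17) and with only both groups compared in the fit (0.26).

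HSPE1 (ENSG00000115541, chromosome 2, 197499994 to 197503457) had 36.0 and 42.2 CPM in sgKDM5C, 51.8 and 63.1 CPM in sgKDM6A, 54.6 and 50.9 CPM in sgKMT2B, and 49.1 and 32.0 CPM in WT. The WT range was wide and took in both sgKDM5C libraries. Changes were -0.06 ± 0.17 in sgKDM5C, 0.49 ± 0.17 in sgKDM6A and 0.37 ± 0.17 in sgKMT2B, of which that in sgKDM6A was called. That call was lost without WT replicate 2 (0.23), sgKDM6A replicate 1 (0.63) or sgKDM6A replicate 2 (0.35), with a minimum mean of 1 CPM (0.49) and with only both groups in the fit (0.50). Without WT replicate 1 the sgKDM6A change was 0.85 and kept its call. In sgKMT2B HSPE1 was called without WT replicate 1 (0.73) and with no filter on low counts (0.38). HSPD1 counts were 18.2 and 15.3 times those of HSPE1 in sgKDM5C and 17.7 and 16.4 times in sgKDM6A. In sgKMT2B they were 15.6 and 16.5 times those of HSPE1, and in WT 17.3 and 24.3 times. HSPE1 shares 14.2% of its exonic bases with HSPD1 on the opposite strand and 9.71% with HSPE1-MOB4 on the same strand. How reads there were counted is not stated, so the HSPE1 levels and this ratio are uncertain. Both genes were lower in sgKDM5C than in sgKDM6A, with log2 differences of -0.58 ± 0.08 for HSPD1 and -0.56 ± 0.17 for HSPE1.

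**Figure D4:**
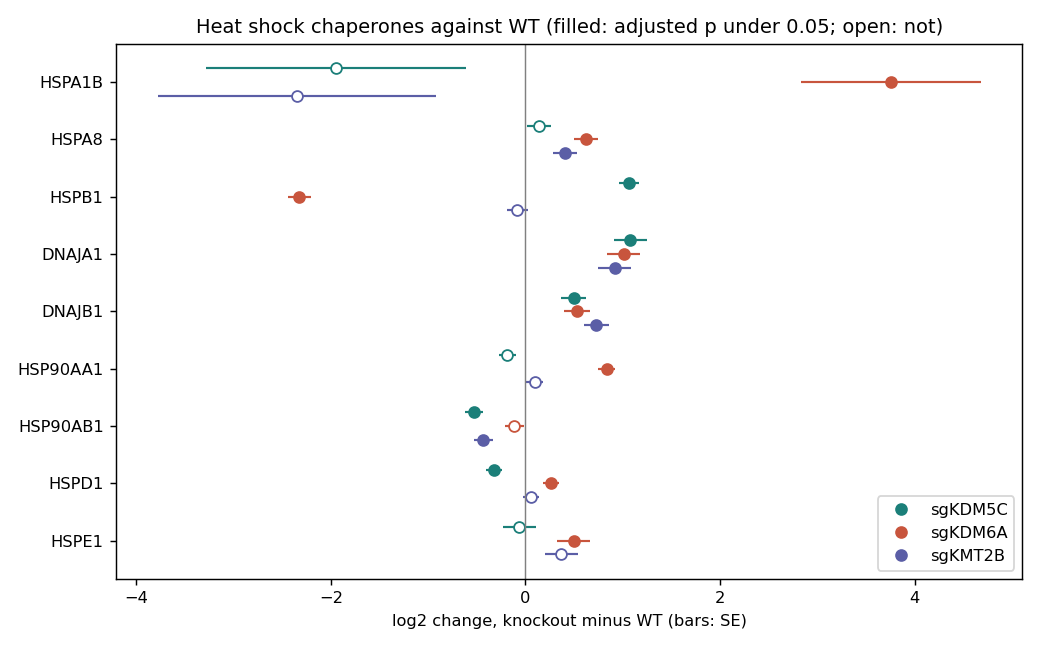
Log2 change of the 9 fitted chaperone genes against WT in each knockout. Points are fitted changes, bars their SE, and filled points have an adjusted p under 0.05; HSPB1 lies on opposite sides of 0 in sgKDM5C (1.07) and sgKDM6A (-2.32), while DNAJA1 and DNAJB1 lie above 0 in all 3.

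Pseudogenes whose name is the symbol of a chaperone, P and a number held few counts beside it. For HSP90AA1 and HSP90AB1 0 names had that form, and names of other forms were not searched. Pseudogenes named after HSPE1, HSPD1, HSPB1, HSPA8 and DNAJA1 held 1.63%, 0.975%, 0.185%, 0.0528% and 0.0280% of their parent's counts over all libraries. HSPA1B shares 920 exonic bases, 36.5% of its exons, with ENSG00000285565 on the same strand, which had 0 counts. How reads in that stretch were counted is not stated, which leaves the HSPA1B level uncertain there too. HSP90AA1 shares 197 exonic bases with WDR20 on the opposite strand, and HSPE1 shares 192 with the readthrough gene HSPE1-MOB4, which had 6 counts in all. Overlapping genes on the opposite strand held more. WDR20 had 4004 counts in all, and TECR, which overlaps DNAJB1, had 49753. HSPD1 had 162034 counts in all, against 9507 for HSPE1, which it overlaps.

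Around the 10 genes, 100 other genes of the chaperone network were listed, and 92 passed the filter. In sgKDM5C 8 of them rose and 16 fell, or 8.70% and 17.4% of those tested, with a median log2 change of -0.08. In sgKDM6A 14 rose and 13 fell (15.2% and 14.1%, median 0.10), and in sgKMT2B 10 rose and 17 fell (10.9% and 18.5%, median -0.07). Leaving out 1 library cut the number called by more than 1.5 times in 5 cases, to 12 (24 with all libraries) in sgKDM5C without its replicate 1, to 12 and 16 (27 with all) in sgKDM6A without its replicates 1 and 2, and to 8 and 9 (27 with all) in sgKMT2B without its replicates 1 and 2. The same shares over all genes were 11.1% and 11.5%, 12.6% and 14.6%, and 13.7% and 14.5%. The genes named next are those with the smallest adjusted p of their list. Unless a loss is given, they kept their call without any 1 library of WT or of the knockout compared. Adjusted p-values are from edgeR over all genes tested.

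Of 4 genes on the heat shock factor list, HSF1, HSF2, HSF4 and the binding protein gene HSBP1, 0 rose in any knockout. In turn 1, 2 and 1 of them fell in sgKDM5C, sgKDM6A and sgKMT2B. Among all genes 11.1%, 12.6% and 13.7% rose and 11.5%, 14.6% and 14.5% fell. The listed gene that fell in sgKMT2B was HSBP1, which is not itself a heat shock factor (-0.26 ± 0.09, edgeR adjusted p = 0.039). Its fits without 1 library are not given here. HSF2, a partner of HSF1, had 52.0 and 60.5 CPM in sgKDM6A, against 84.0 and 91.1 CPM in WT, and fell by 0.64 ± 0.12 (adjusted p = 0.0018). In sgKDM5C it fell by 0.52 ± 0.12 (adjusted p = 0.0076), a call lost without sgKDM5C replicate 1 (-0.46). HSF1, the main activator of these genes, had 176 and 159 CPM in sgKDM6A, against 220 and 191 CPM in WT. Its change of -0.30 ± 0.10 passed in sgKDM6A (adjusted p = 0.038), but not without WT replicate 1 (-0.18), sgKDM6A replicate 1 (-0.37) or sgKDM6A replicate 2 (-0.22). In sgKDM5C and sgKMT2B it was -0.25 ± 0.10 and -0.24 ± 0.10 (adjusted p = 0.079 in both).

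Of 9 tested HSP70 and HSP110 genes beside those above, 2, 4 and 2 rose and 0, 1 and 2 fell. Among all genes 11.1%, 12.6% and 13.7% rose and 11.5%, 14.6% and 14.5% fell. HSPA2, an HSP70 known for its role in testis, had 17.2 and 12.7 CPM in sgKDM5C, 9.43 and 6.72 CPM in sgKDM6A, 16.4 and 13.8 CPM in sgKMT2B, and 3.88 and 3.83 CPM in WT. It rose by 1.95 ± 0.22 (adjusted p = 0.00013), 1.06 ± 0.23 (adjusted p = 0.0042) and 1.97 ± 0.23 (adjusted p = 4.5e-05). HSPH1, an HSP110 that exchanges nucleotide on HSP70, rose in sgKDM6A by 0.72 ± 0.12 (adjusted p = 0.0011). Its rise in sgKDM5C (0.44 ± 0.12, adjusted p = 0.023) was lost without WT replicate 2 (0.27) or sgKDM5C replicate 1 (0.31), and its fall in sgKMT2B (-0.37 ± 0.13, adjusted p = 0.040) without WT replicate 1 (-0.19), sgKMT2B replicate 1 (-0.48) or sgKMT2B replicate 2 (-0.27). Among 9 exchange factors and partners of HSP70, BAG5 had 65.6 and 67.9 CPM in sgKDM6A, against 36.4 and 35.7 CPM in WT, and rose by 0.89 ± 0.11 (adjusted p = 7.6e-05). It also passed in sgKDM5C (0.32 ± 0.11, adjusted p = 0.0495) and sgKMT2B (0.35 ± 0.11, adjusted p = 0.026), but lost the call without any 1 of the 4 libraries compared in sgKDM5C (0.25 to 0.36), and without WT replicate 2 or either sgKMT2B library (0.34 to 0.37) in sgKMT2B.

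Of 26 other J protein genes, 4, 5 and 3 rose and 1, 5 and 4 fell in sgKDM5C, sgKDM6A and sgKMT2B. That is 15.4%, 19.2% and 11.5% higher, beside 11.1%, 12.6% and 13.7% of all genes. The shares lower were 3.85%, 19.2% and 15.4%, beside 11.5%, 14.6% and 14.5% of all genes. DNAJC6, or auxilin, which brings HSPA8 to clathrin coats, had 33.7 and 38.3 CPM in sgKDM5C, 33.2 and 37.1 CPM in sgKDM6A, 17.9 and 22.7 CPM in sgKMT2B, and 55.3 and 62.0 CPM in WT. It fell in each, with changes of -0.70 ± 0.14 (adjusted p = 0.0034), -0.74 ± 0.14 (adjusted p = 0.0019) and -1.53 ± 0.14 (adjusted p = 8.9e-06). DNAJC30, a mitochondrial J protein, had 15.3 and 12.2 CPM in sgKDM5C, 15.2 and 11.0 CPM in sgKDM6A, 19.2 and 15.2 CPM in sgKMT2B, and 8.55 and 6.43 CPM in WT. It rose by 1.18 ± 0.21 in sgKMT2B (edgeR adjusted p = 0.0013) and by 0.79 ± 0.22 in sgKDM6A (adjusted p = 0.016). For DNAJC30 in sgKDM6A, values without 1 library are not given here. Its rise in sgKDM5C (0.86 ± 0.21, adjusted p = 0.012) was lost without WT replicate 2 (0.67) or sgKDM5C replicate 1 (0.69). DNAJC15, of the mitochondrial import machinery, fell by 3.00 ± 0.64 in sgKDM6A (adjusted p = 0.0040) at levels of 0.0396 and 0.179 CPM there, against 0.950 and 0.910 CPM in WT. The other DNAJA genes of the list, DNAJA2 and DNAJA4, were named after their values were seen. DNAJA2 had 84.9 to 113 CPM in the knockout libraries and 100 and 102 CPM in WT, and did not pass in any knockout (adjusted p = 0.62, 0.57 and 0.71). DNAJA4 had 1.70 and 0.822 CPM in sgKDM6A, against 0.454 and 0.130 CPM in WT. Its change of 1.98 ± 0.68 passed in sgKDM6A (edgeR adjusted p = 0.044), and its values without 1 library are not given here. It did not pass in sgKDM5C (0.99 ± 0.71, adjusted p = 0.34) or sgKMT2B (-0.07 ± 0.77, adjusted p = 0.96).

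Of 17 HSP90 co-chaperones, 1, 1 and 0 rose and 4, 0 and 4 fell. For this list and the next, the shares of all genes were 11.1%, 12.6% and 13.7% higher and 11.5%, 14.6% and 14.5% lower. PTGES3, the p23 protein that closes HSP90, had 461 and 419 CPM in sgKDM5C, against 618 and 647 CPM in WT, and fell by 0.52 ± 0.08 (adjusted p = 0.00098). Its change of -0.28 ± 0.08 in sgKMT2B (adjusted p = 0.024) lost its call without WT replicate 2 or either sgKMT2B library (-0.29 to -0.25). TOMM34, which links HSP70 and HSP90 to mitochondrial import, fell by 0.64 ± 0.13 in sgKDM5C (adjusted p = 0.0041). The TRiC chaperonin, which folds actin and tubulin, and its feeder prefoldin gave 0, 1 and 2 of 13 tested genes that rose and 5, 1 and 3 that fell. CCT4, a TRiC subunit, had 352 and 331 CPM in sgKDM5C, 455 and 479 CPM in sgKMT2B, and 614 and 643 CPM in WT. It fell, with changes of -0.88 ± 0.08 in sgKDM5C (adjusted p = 3.1e-05) and -0.43 ± 0.08 in sgKMT2B (adjusted p = 0.0017). CCT7 and CCT3 also fell in sgKDM5C (-0.66 ± 0.08, adjusted p = 0.00016, and -0.47 ± 0.09, adjusted p = 0.0026). CCT7 also passed in sgKMT2B (-0.23 ± 0.08, adjusted p = 0.043), a call lost without WT replicate 2 (-0.16) or either sgKMT2B library (-0.23 and -0.22).

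Of 10 tested mitochondrial chaperones and proteases other than HSPD1 and HSPE1, 0, 1 and 1 rose and 5, 2 and 1 fell. Among all genes 11.1%, 12.6% and 13.7% rose and 11.5%, 14.6% and 14.5% fell. LONP1, the matrix protease, had 327 and 305 CPM in sgKDM5C, 306 and 293 CPM in sgKDM6A, 708 and 686 CPM in sgKMT2B, and 478 and 456 CPM in WT. It fell in sgKDM5C (-0.56 ± 0.08, adjusted p = 0.00055) and in sgKDM6A (-0.64 ± 0.08, adjusted p = 0.00012), and rose by 0.58 ± 0.08 in sgKMT2B (adjusted p = 0.00023). GRPEL1, the exchange factor of mitochondrial HSP70, rose in sgKDM6A by 0.53 ± 0.11 (adjusted p = 0.0030). In sgKMT2B it fell (-0.35 ± 0.11, adjusted p = 0.026), a call lost without WT replicate 1 (-0.29), sgKMT2B replicate 1 (-0.43) or sgKMT2B replicate 2 (-0.27), and in sgKDM5C it did not pass (-0.03 ± 0.11, adjusted p = 0.86). HTRA2, a protease of the intermembrane space, fell in sgKDM5C by 0.68 ± 0.12 (adjusted p = 0.0015) and did not pass in sgKDM6A or sgKMT2B.

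**Figure D5:**
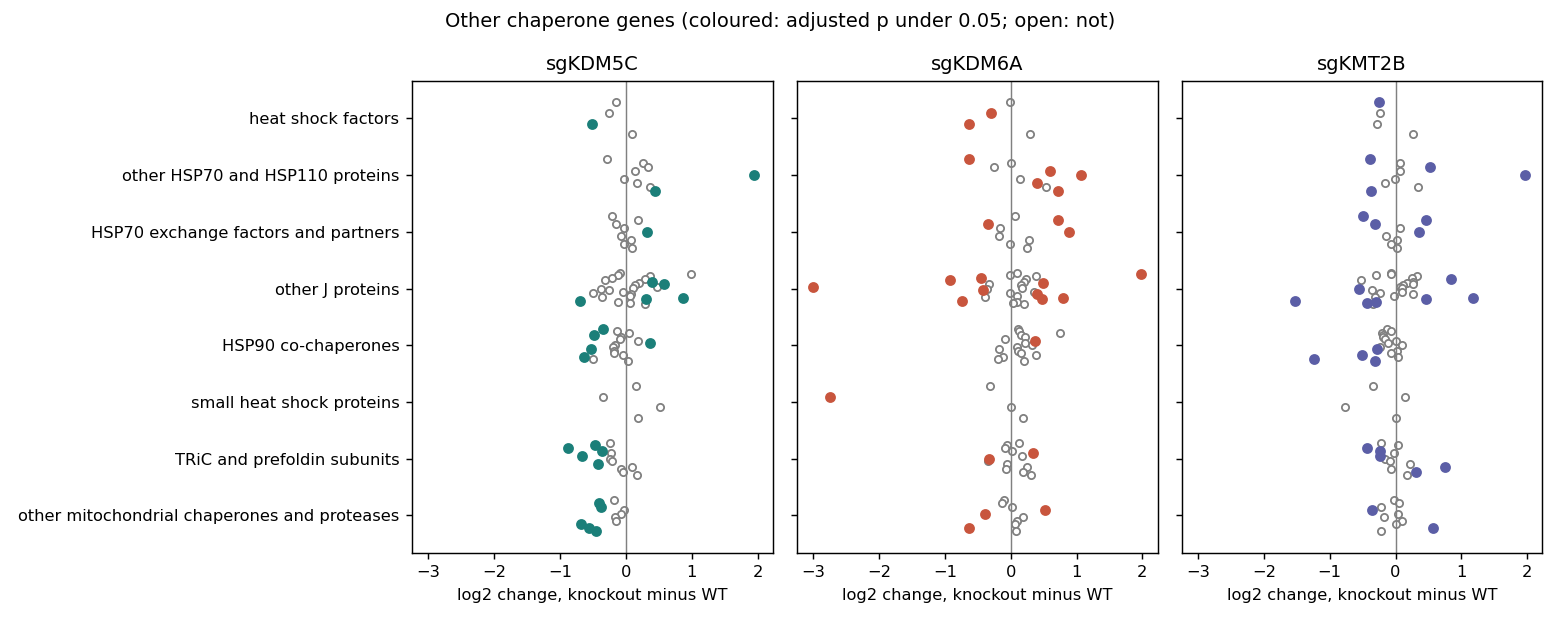
Log2 changes against WT of the 92 tested genes of the wider chaperone network, by list, with 1 panel for each knockout. Each point is a gene and coloured points have an adjusted p under 0.05; the TRiC and mitochondrial lists have 5 coloured points each left of 0 in sgKDM5C and HSPA2 lies right of 0 in every panel.

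A list of 17 heat-inducible genes, which overlaps the lists above, gave 2, 3 and 3 of 16 tested genes that rose and 4, 2 and 2 that fell, with medians of -0.09, 0.15 and -0.12. HMOX1, heme oxygenase, which responds to heat and oxidants, had 32.5 and 27.5 CPM in sgKDM5C, 77.6 and 58.8 CPM in sgKDM6A, 114 and 98.1 CPM in sgKMT2B, and 42.8 and 47.0 CPM in WT. It rose in sgKMT2B by 1.24 ± 0.14 (adjusted p = 4.9e-05). Its rise in sgKDM6A (0.60 ± 0.14, adjusted p = 0.0075) was lost without sgKDM6A replicate 1 (0.39). Its fall in sgKDM5C (-0.58 ± 0.15, adjusted p = 0.012) was lost without WT replicate 2 (-0.53) or sgKDM5C replicate 2 (-0.48). The shares of all genes that rose were 11.1%, 12.6% and 13.7%, and of those that fell 11.5%, 14.6% and 14.5%. Chaperones of the endoplasmic reticulum gave 0, 1 and 0 of 15 genes that rose and 8, 4 and 7 that fell. HSPA5, the HSP70 of that compartment, fell, with changes of -1.13 ± 0.13 in sgKDM5C (adjusted p = 0.00014), -0.58 ± 0.13 in sgKDM6A (adjusted p = 0.0058) and -0.91 ± 0.13 in sgKMT2B (adjusted p = 0.00025), where HSPA8 changed by 0.14, 0.62 and 0.40.

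For each fitted chaperone, the genes whose log2 CPM followed it most closely over the 8 libraries were listed among the 11241 others that averaged 5 CPM or more. The points share 4 groups of 2 libraries each, so these correlations follow the group levels and are a description. HSPB1 was nearest to RAMP2, BARX2 and CELSR2 (Pearson r = 0.995, 0.991 and 0.991). DNAJA1 was nearest to ANKFY1, ZSCAN25 and CREBL2 (0.994, 0.988 and 0.987), and DNAJB1 to RXYLT1, ZNF696 and TOE1 (0.986, 0.986 and 0.983). HSPA8 was nearest to YIPF1, POLR1C and MED19 (0.982, 0.978 and 0.977). HSP90AA1 was nearest to PTGES2, STT3B and PPIH (0.984, 0.979 and 0.978), and HSP90AB1 to HMGN4, IGF1R and SCD (0.987, 0.977 and 0.976). HSPD1 followed THUMPD2, GEMIN6 and BOLA3 (0.981, 0.978 and 0.970) and HSPE1 WDR35, CCDC59 and SRFBP1 (0.961, 0.959 and 0.956). HSPA1B gave ABHD18, NMRK1 and IGFBP5 (0.969, 0.949 and 0.947), at levels set largely by 1 library.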

How the data were processed

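The authors deposited raw read counts per Ensembl gene for the 8 libraries, made from 150-base read pairs (per the labels' protocols) with STAR and HTSeq 0.11.2 on GRCh38, per the submitters' processing notes. No label or note names the annotation release, the strand setting or the treatment of multi-mapped reads. Symbols came from a table of gene names (60261 of 60617 matched), HSPB11 through its current symbol IFT25, and coordinates from GENCODE v29. Counts were fitted with edgeR 4.0.16 in R 4.3.3 (glmQLFit, glmQLFTest; TMM; filterByExpr; all 8 libraries, 1 coefficient per group), with Benjamini-Hochberg adjustment over 17527 genes in each comparison. DESeq2 1.42.0 was an alternative, and the fit was tested on simulated data. Replicates of a group differed by more than sampling noise (chi-square per degree of freedom 7.57 to 15.3). Each library was counted as 1 replicate.

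The genes described and the lists around them were chosen with earlier results of these data known. The rule for named genes took the 10 chaperones, up to 4 called genes with the smallest adjusted p from each list and knockout, the 3 genes most like each chaperone, and its pseudogenes and overlapping genes. Likeness is Pearson r of log2(CPM + 0.1).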

Additional observations from a re-analysis of the deposited data

How the results depend on the processing

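Normalization (RLE or upper-quartile factors), the filter on low counts, a fit on only both groups, HSPA1A and HSPA1B summed, and DESeq2 moved no count of called genes by more than 1.5 times. DESeq2 also called 5, 8 and 4 of the chaperones in sgKDM5C, sgKDM6A and sgKMT2B. Of 216 changes of single chaperones under these settings and the replicate block, 209 kept their direction and side of the threshold, 3 lost and 4 gained a call; of 108 with 1 library left out, 80 did, 16 lost, 5 gained and 7 turned direction. Leaving out 1 library in turn gave 1841 to 3877 called genes in sgKDM5C (3969 with all), 2495 to 4711 in sgKDM6A (4759) and 2372 to 4787 in sgKMT2B (4931). The chaperones called ranged over 3 to 5, 5 to 8 and 2 to 5, and the other chaperone genes over 12 to 30 (24 with all), 12 to 37 (27) and 8 to 27 (27). The lowest gene counts came without replicate 1 of the knockout, and the fit without WT replicate 2 gave 2633, 3148 and 3574. Such fits have fewer samples.

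Changes that turned direction without 1 library were those of genes not called with all libraries: HSPA8 (-0.13 to 0.36) and HSPE1 (-0.34 to 0.29) in sgKDM5C, HSP90AB1 in sgKDM6A (-0.25 to 0.048), and HSPB1 (-0.17 to 0.0093), HSP90AA1 (-0.025 to 0.23) and HSPD1 (-0.0034 to 0.13) in sgKMT2B; the cause was not tested. The labels number the replicates alike in each group but do not say that a number marks a shared culture or day, and deviations of same-numbered libraries correlated at -0.018 to 0.182, so they were not taken as pairs. With the replicate block 4645, 5521 and 5576 genes, 5, 8 and 4 chaperones and 27, 31 and 35 other chaperone genes were called. HSPA1A had under 30 counts in all libraries and HSPA1B in all but 1, in a stretch where most genes had few.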
